A study of Rattus norvegicus with 9 samples.

Results

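The ganglioside synthesis enzymes that lie behind the A2B5 antigen were followed in cultured oligodendrocyte progenitors, glial precursors of the cells that form myelin in the brain. They were picked out by gene symbol, as St8sia1, St8sia3, St8sia5, St3gal2, St3gal5, St6galnac5, B4galnt1, B3galt4, Ugcg and B4galt6. Of these 10 genes, 8 had a probe, with 11 probes in all, out of 12167 genes and 35129 probes with values. St8sia5 and St6galnac5 were not analysed here. Because St8sia5 is one of the enzymes that finish the antigen, that step is covered only in part.

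The progenitors came from newborn rats of a strain the labels do not give. One population carried O4 and lacked NG2 (called O4), another carried both NG2 and A2B5 (called NG2/A2B5), and the last carried NG2 only (called NG2). Each was measured on 3 one-colour arrays that the labels number I, II and III, 9 arrays in all, from total RNA amplified by repeated in vitro transcription. The series text mentions separate cultures, but the labels do not say that a numeral stands for one, so every p-value refers to array-to-array spread, part of which may be technical. In such bulk samples, fewer cells of a type and less RNA per cell cannot be told apart.

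Gangliosides are sialic acid-bearing glycolipids of the cell surface that are built stepwise in the Golgi. Glucose and then galactose are added to ceramide, a first sialic acid gives GM3, and further sialic acids give GD3 and GT3, from which the a-, b- and c-series branch. The A2B5 antibody binds c-series gangliosides, and these lipids mark early glial progenitors. O4, the antibody of the later stage, binds sulfatide instead. The antigens are lipids, so none of these genes encodes the antigen itself.

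Between populations no estimated difference of the 8 measured genes exceeded 0.59 in size on the log2 scale. Some intervals were wide: for B4galt6 in NG2/A2B5 minus NG2 the interval reached a 2.04-fold lower value in NG2/A2B5. That interval is from the model without the numeral, with an SE of 0.40. With the numeral as a fixed block the SE was 0.17. No member passed in any contrast between populations when limma's p-values were adjusted across the whole table (Benjamini-Hochberg, threshold 0.05). At most 1 gene of the whole table passed in any of these contrasts, so this does not show that the members were equal. St8sia1, which makes GD3, had its highest mean in NG2/A2B5, at 1.34-fold of NG2 (95% interval 0.808 to 2.23). St8sia3 had its lowest mean in O4, and B4galnt1 its highest. The clearest pattern of the group was tied to the array numeral: B4galt6 read higher on array II than on arrays I and III in each population, with both of its probes.

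The arrays were alike in scale, with medians between 1.05 and 1.07 intensity units and values for 34926 to 34975 probes. All 8 genes read above the 25th percentile of every array (0.205 to 0.255 units) with the probe that stands for them, which is the one with the highest mean. B3galt4 was the lowest, with 35.4% to 46.5% of an array's probes below it. Among progenitor markers 7 of 10 were measured, and all 7 had a mean above that percentile. On the log2 scale the highest was Cspg4 (NG2) at 7.07, and Sox10 was at 5.20. Pdgfra (-1.07) and Olig2 (-0.92) were the lowest, with means under the median of every array. The O4 arrays, labelled NG2 negative, had a Cspg4 mean of 6.92. It was 7.07 for the NG2/A2B5 arrays and 7.22 for those of the NG2 population. Of the measured markers of premyelinating and myelinating cells 8 of 10 had a mean above that percentile, the highest being Bcas1 (7.93), Cnp (7.64) and Mag (3.66). Mbp (-2.26) and Opalin (-2.98) had a mean under it. The mean was above that percentile for 8 of 8 of astrocytes, 4 of 10 of microglia, 4 of 6 of neurons, 3 of 4 of endothelium and 3 of 7 of pericytes and fibroblasts. Of all 12165 genes tested in O4 minus NG2, 9908 were not under this limit either, so passing it does not mark a cell type. The astrocyte count, for example, includes Gfap (-1.77) and Slc1a2 (-1.92). None of these markers passed in a pairwise contrast, where at most 1 of all genes did, so this does not show equal composition. An unadjusted p under 0.05 (limma) in some pairwise contrast was found for 1 astrocyte, 2 microglial and 1 pericyte and fibroblast marker, and for 0 of each other list. Of all genes 8% (O4 minus NG2), 3.28% (O4 minus NG2/A2B5) and 4.48% (NG2/A2B5 minus NG2) had one in that single contrast. The share of all genes with one in any pairwise contrast was not counted, so these shares are not a like background. For astrocyte markers the summed intensity ranged from 72.4 to 164 on O4 arrays, from 107 to 168 on NG2/A2B5 arrays and from 97.1 to 119 on NG2 arrays, so it overlapped.

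**Figure D1:**
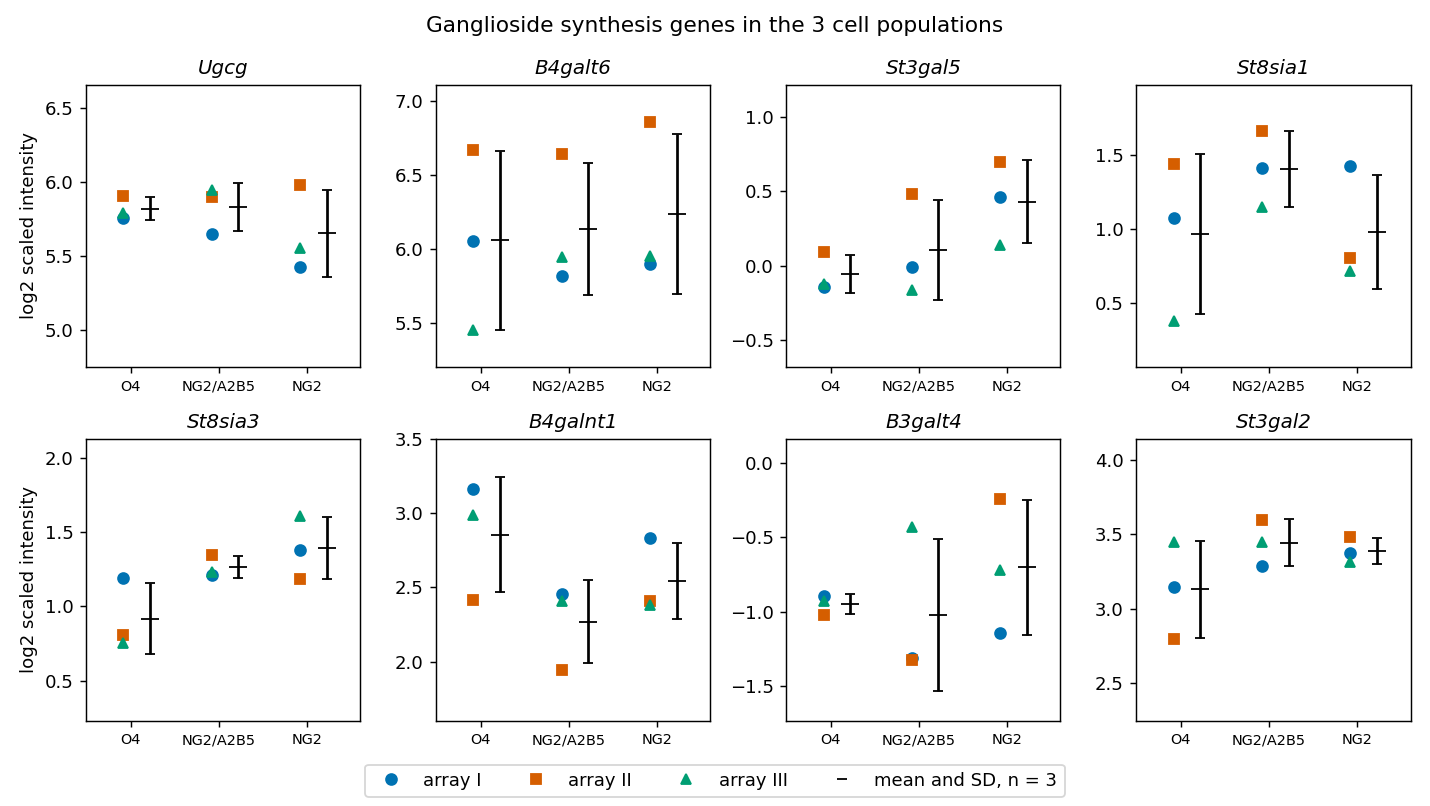
Log2 scaled intensity of the 8 measured genes on each array (y axis, the same span in each panel) by population (x axis); symbols give the array numeral, and bars the mean and SD of 3 arrays. The populations overlap in most panels, while array II of B4galt6 (squares) stands above arrays I and III in all 3 populations.

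The first committed step is run by Ugcg, which puts glucose on ceramide. On arrays I, II and III it measured 54.2, 60.0 and 55.4 intensity units in O4, 50.2, 59.7 and 61.7 in NG2/A2B5, and 43.0, 63.1 and 46.9 in NG2. The NG2 arrays spanned the whole range of the other populations, so the groups overlapped. On the log2 scale the means were 5.82 ± 0.08 (SD, n = 3), 5.83 ± 0.16 and 5.65 ± 0.29. Ugcg was the steadiest member: 13.0% of all genes had a lower SD over the 9 arrays than its 0.19. NG2/A2B5 differed from NG2 by 0.18 (interval -0.24 to 0.60), so a change of more than 1.52-fold up or 1.18-fold down lay outside the interval.

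B4galt6 adds the galactose that makes lactosylceramide, the parent of nearly all gangliosides. It measured 66.5, 101 and 43.8 units in O4 on arrays I, II and III, 56.4, 99.8 and 61.7 in NG2/A2B5, and 59.6, 116 and 61.9 in NG2. Every array II lay above every array I and III, whatever the population. Between populations the log2 differences were -0.18 for O4 minus NG2, -0.08 for O4 minus NG2/A2B5 and -0.10 for NG2/A2B5 minus NG2, each with a wide interval (for the last, -1.03 to 0.83).

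St3gal5 adds the first sialic acid and makes GM3. Its values on arrays I, II and III were 0.905, 1.06 and 0.918 units in O4, 0.994, 1.40 and 0.894 in NG2/A2B5, and 1.38, 1.62 and 1.10 in NG2. Each NG2 array lay above each O4 array, while NG2/A2B5 overlapped with both. The difference for O4 minus NG2 was -0.49 (SE 0.22, interval -1.01 to 0.02), or 1.41-fold higher in NG2, in the same direction at 3 of 3 numerals (-0.61, -0.61 and -0.26). It did not pass, with an unadjusted p of 0.0589 and an adjusted p of 0.642 in limma. For NG2/A2B5 minus NG2 it was -0.33 (interval -0.84 to 0.19), also negative at 3 of 3 numerals.

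St8sia1 turns GM3 into GD3, the step that opens the b- and c-series. On arrays I, II and III it measured 2.11, 2.71 and 1.30 units in O4, 2.65, 3.15 and 2.21 in NG2/A2B5, and 2.68, 1.75 and 1.64 in NG2. The highest single value was in NG2/A2B5 and the lowest in O4, but on array I NG2/A2B5 and NG2 read alike. NG2/A2B5 exceeded the mean of the other populations by 0.43 (SE 0.27, interval -0.20 to 1.06), by 0.16, 0.54 and 0.60 at numerals I, II and III. That contrast sets the population labelled for A2B5 against the others, and St8sia1 did not pass in it (unadjusted p 0.154, adjusted p 0.99998 in limma). Against NG2 alone the difference was 0.42 (interval -0.31 to 1.16), and the numerals gave -0.01, 0.85 and 0.43. O4 and NG2 differed by -0.02 (interval -0.75 to 0.72).

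St8sia3 is a sialyltransferase that can extend GD3 and GM3, and with St8sia5 it is linked to c-series gangliosides. It measured 2.29, 1.75 and 1.69 units in O4, 2.31, 2.55 and 2.35 in NG2/A2B5, and 2.61, 2.28 and 3.05 in NG2. All O4 arrays lay under all NG2/A2B5 arrays, by a small margin on array I, and O4 overlapped with NG2 only through its array I. The log2 means were 0.92 ± 0.24 (SD, n = 3), 1.26 ± 0.07 and 1.39 ± 0.21. O4 minus NG2 was -0.47 (SE 0.18, interval -0.89 to -0.06), or 1.39-fold higher in NG2, with -0.19, -0.38 and -0.85 at numerals I, II and III. In the limma model without the numeral its unadjusted p was 0.0296, the lowest of the members between populations, and its adjusted p 0.588. With the numeral as a fixed block its unadjusted p was 0.0399, and the lowest was that of B4galnt1 in O4 minus NG2/A2B5 (0.0102). O4 minus NG2/A2B5 was -0.34 (interval -0.76 to 0.07). Between NG2/A2B5 and NG2, which differ in the labelled A2B5 antigen, St8sia3 differed by -0.13 (interval -0.54 to 0.28), with its higher mean in the population without the label.

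B4galnt1 adds N-acetylgalactosamine and so starts the complex gangliosides such as GM2 and GD2. It read 8.95, 5.34 and 7.92 units in O4, 5.48, 3.85 and 5.31 in NG2/A2B5, and 7.14, 5.30 and 5.21 in NG2. At each numeral O4 was the highest population, although on array II it read about as NG2, and its array II reading fell within the range of the other groups. O4 minus NG2/A2B5 was 0.59 (SE 0.25, interval -0.002 to 1.17), or 1.50-fold, with 0.71, 0.47 and 0.58 at numerals I, II and III. This was the largest difference between populations among the members, and it did not pass (unadjusted p 0.0506, adjusted p 0.9997 in limma). O4 minus NG2 was 0.31 (interval -0.27 to 0.90). NG2/A2B5 lay under the mean of the other populations at 3 of 3 numerals, at -0.43 (interval -0.94 to 0.08).

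B3galt4 adds the next galactose and makes GM1 and GD1b. Its values were 0.538, 0.492 and 0.526 units in O4, 0.402, 0.399 and 0.742 in NG2/A2B5, and 0.452, 0.847 and 0.608 in NG2. O4 varied little, and the other populations ranged on both sides of it. No contrast between populations exceeded 0.32 in size on the log2 scale (NG2/A2B5 minus NG2, -0.32, interval -1.04 to 0.39).

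St3gal2 caps the complex gangliosides with a further sialic acid. It measured 8.86, 6.94 and 10.9 units in O4, 9.74, 12.1 and 10.9 in NG2/A2B5, and 10.4, 11.2 and 9.92 in NG2. The low O4 mean (3.13 ± 0.33 on the log2 scale) rested mainly on its array II. O4 minus NG2/A2B5 was -0.31 (interval -0.76 to 0.13) and O4 minus NG2 was -0.26 (interval -0.71 to 0.19). The second probe of St3gal2, at 0.0691 to 0.367 units, was above the 25th percentile on 2 of 9 arrays, and it gave 0.16 for O4 minus NG2/A2B5, the opposite sign.

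**Figure D2:**
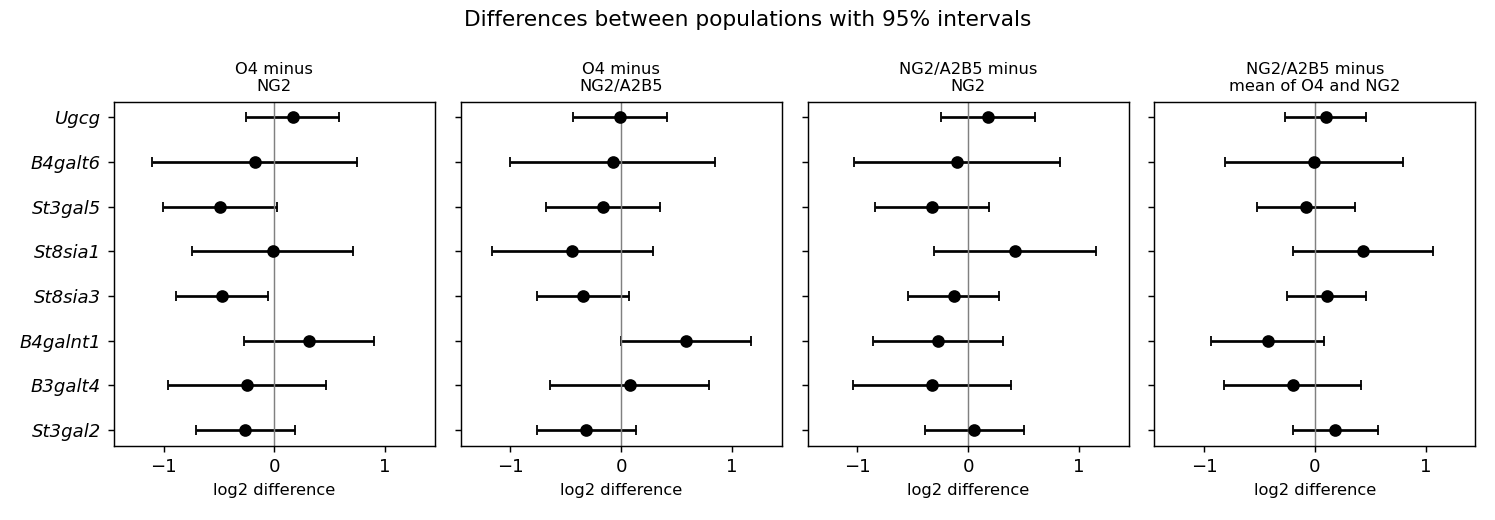
Log2 difference of each gene (x axis) in the 3 pairwise contrasts and in NG2/A2B5 against the mean of the others; points are the estimates and bars the 95% intervals of the limma model on 9 arrays. The intervals cover 0 for every gene and contrast but St8sia3 in O4 minus NG2, which spans -0.89 to -0.06.

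The members' counts were read against those of all genes. At an adjusted p under 0.05, 0 of 8 members passed in O4 minus NG2 and in O4 minus NG2/A2B5, where 1 of 12165 genes did (0.00822% in each), and 0 of 8 in NG2/A2B5 minus NG2 and in NG2/A2B5 minus the mean of the others, where 0 genes did (0%). At an unadjusted p under 0.05 in the model without the numeral, O4 minus NG2 had 1 of 8 members (St8sia3) against 8% of all genes. The other contrasts had 0 of 8, against 3.28% for O4 minus NG2/A2B5, 4.48% for NG2/A2B5 minus NG2 and 2.97% for NG2/A2B5 minus the mean of the others. Arrays did not overlap between O4 and NG2 for 1 of 8 members (St3gal5) and 14% of genes, between O4 and NG2/A2B5 for 1 of 8 (St8sia3) and 8.67%, and between NG2/A2B5 and NG2 for 0 of 8 and 10.2%.

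The sizes were also close to those of other genes. In NG2/A2B5 minus NG2 the median size of the members' log2 difference was 0.23, and that of all genes 0.19. It was 0.25 and 0.24 in O4 minus NG2, and 0.24 and 0.18 in O4 minus NG2/A2B5. With its sign, the members' median was -0.21 in O4 minus NG2 (2 positive, 6 negative), -0.12 in O4 minus NG2/A2B5 (2 and 6) and -0.11 in NG2/A2B5 minus NG2 (3 and 5), with medians over all genes of 0.02, 0.02 and -0.01. These contrasts share arrays. Ugcg and B4galnt1 gave the positive values in O4 minus NG2, and B4galnt1 and B3galt4 those in O4 minus NG2/A2B5.

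The array numeral accounted for more of the variation than the population in several members. Of the sum of squares of B4galt6 over the 9 arrays, 87.4% lay between numerals and 2.73% between populations. For Ugcg the shares were 51.9% and 20.5%, and for St8sia1 44.5% and 27.1%. St3gal5 (43.9% and 47.3%) and B4galnt1 (43.1% and 46.5%) divided about evenly. St8sia3, at 5.74% and 62.7%, and St3gal2, at 6.89% and 38.1%, varied more with the population. In B3galt4 60.1% was left outside both. The medians over all genes were 34.2% for the numeral and 21.2% for the population.

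**Figure D3:**
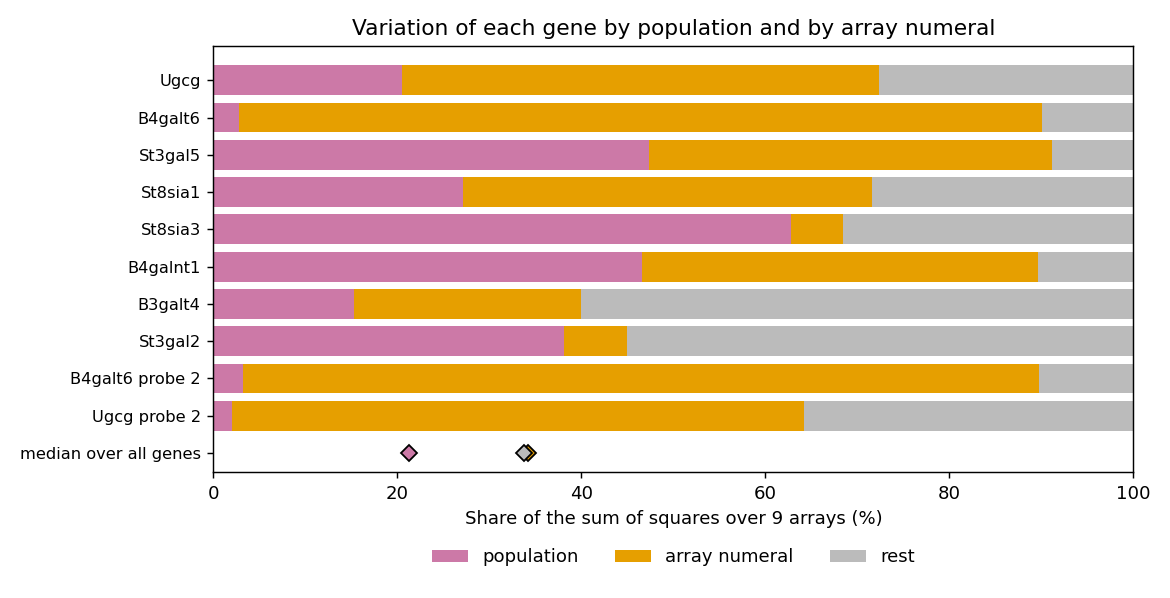
Share of each gene's sum of squares over the 9 arrays (x axis, percent) that lies between populations, between array numerals and in the rest; diamonds give the medians over all genes. B4galt6 stands out with 87.4% between numerals for its main probe and 86.6% for probe 2, and St8sia3 has the largest population share, 62.7%.

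Contrasts between numerals were fitted with the population in the model. B4galt6 was 0.94 lower on array III than on array II (SE 0.17, interval -1.37 to -0.50), a 1.91-fold difference in the same direction in 3 of 3 populations (-1.21, -0.69 and -0.90 for O4, NG2/A2B5 and NG2). Its adjusted p of 0.0555 was just over the threshold, and it ranged from 0.000625 to 0.201 over the other settings. Array II minus array I gave 0.80 (interval 0.36 to 1.23, adjusted p 0.133), again with 3 of 3 populations positive. Arrays III and I differed by -0.14 (interval -0.58 to 0.30).

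Other members followed the numeral in part. B4galnt1 had its lowest mean on array II, at -0.56 against array I (interval -0.94 to -0.18, unadjusted p 0.0123, adjusted p 0.183 in limma). That difference was -0.74, -0.51 and -0.43 in O4, NG2/A2B5 and NG2. In NG2, however, array III (5.21 units) read slightly under array II (5.30 units). St3gal5 read lower on array III than on array II by 0.47 (interval -0.81 to -0.13, unadjusted p 0.0146, adjusted p 0.116). St8sia1 was lowest on array III in every population, at -0.55 against array II (interval -1.15 to 0.04). For St8sia3 and St3gal2 no difference between numerals exceeded 0.15 in size.

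Among all genes such differences were common. At an adjusted p under 0.05, 0 of 8 members passed in array III minus II, where 3.55% of genes did, in II minus I (0.23%) and in III minus I (0%). At an unadjusted p under 0.05, 2 of 8 members (B4galt6 and St3gal5) stood against 23.7% of genes in III minus II, 2 of 8 (B4galt6 and B4galnt1) against 17.2% in II minus I, and 0 of 8 against 12.6% in III minus I. Arrays did not overlap for 1 of 8 and 26.5% in III minus II, 3 of 8 (B4galnt1, Ugcg and B4galt6) and 21.6% in II minus I, and 0 of 8 and 18.4% in III minus I.

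Second probes allowed a check of 3 members. The second probe of B4galt6 measured 9.44, 14.8 and 7.78 units in O4 on arrays I, II and III, 9.14, 13.7 and 10.7 in NG2/A2B5, and 9.89, 16.1 and 9.24 in NG2. As with the first probe, every array II lay above every array I and III, while the order of arrays I and III in NG2 differed between the probes. It gave -0.70 for III minus II and 0.65 for II minus I. Both probes carry the same transcript annotation. The second probe of Ugcg ranged from 0.730 to 2.10 units and also had every array II above every array I and III. It gave 0.70 for II minus I, where the main probe gave 0.32. Between populations the probes of B4galt6 and of Ugcg agreed in sign in each pairwise contrast, with second-probe values from -0.15 to 0.14.

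**Figure D4:**
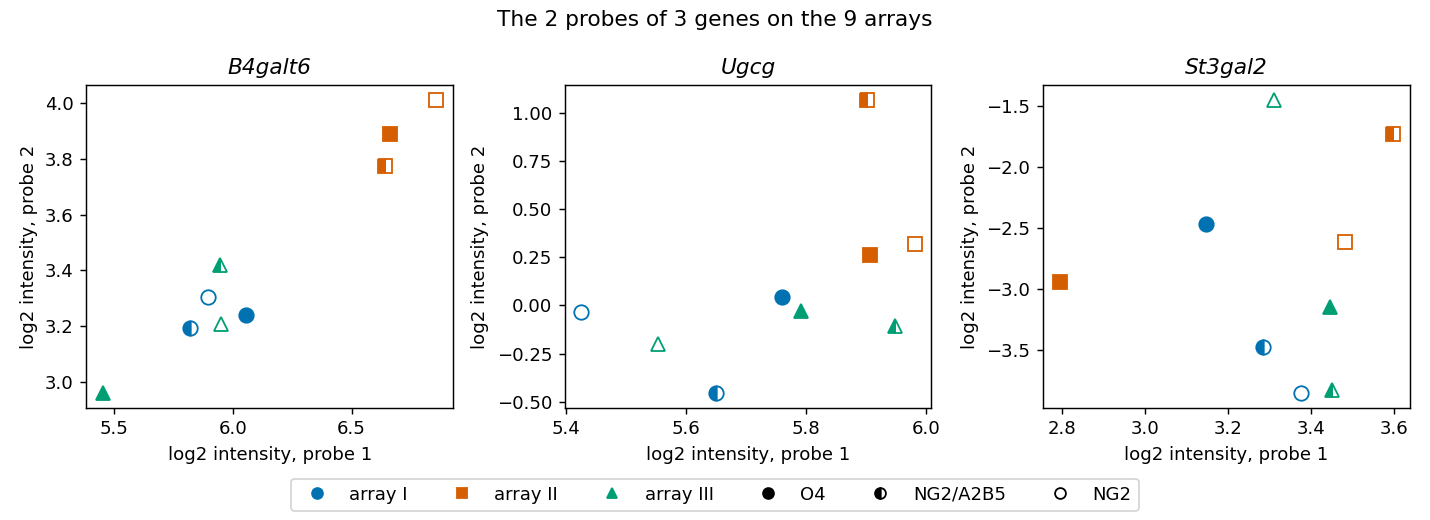
Log2 intensity of the first probe (x axis) against the second probe (y axis) of B4galt6, Ugcg and St3gal2 on the 9 arrays; colour and shape give the numeral and the fill the population. In B4galt6 the 3 arrays numbered II form the upper right corner with both probes, while the St3gal2 probes, of which the second lies near background, share no such order.

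For each member the genes of most similar profile over the 9 arrays were sought among 9784 others with a mean above the 25th percentile. With so many candidates and 9 arrays, high values of Pearson's r are found for any gene, so they only describe the shape. For B4galt6 they were Spetex2el3 (r = 0.98), the fibrillin gene Fbn2 (0.97) and the nucleolar gene Gnl3 (0.97), of whose variation 86.4%, 94.5% and 89.4% lay between numerals. St8sia1 was closest to Lpcat1, an acyltransferase of membrane phospholipids (0.88), Tmem26 (0.88) and Etfbkmt (0.88). St8sia3 was closest to Nod1, a sensor of bacterial cell wall fragments (0.95), Nemf (0.94) and Mycbp2 (0.92). The closest gene was Mthfd1, an enzyme of folate metabolism, for St3gal5 (0.98), Ccna1, a cyclin, for B4galnt1 (0.96), Polr3f, an RNA polymerase III subunit, for St3gal2 (0.97), Ntn1, a guidance cue, for B3galt4 (0.94) and Hyal2, a hyaluronidase, for Ugcg (0.93).

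The rest of the pathway was read from 7 lists with 88 genes, of which 68 were measured. Between populations 0 of the 68 passed at an adjusted p under 0.05, and 3 (O4 minus NG2), 2 (O4 minus NG2/A2B5) and 0 (NG2/A2B5 minus NG2) had an unadjusted p under 0.05, where 8%, 3.28% and 4.48% of all genes did. In NG2/A2B5 minus NG2 they split 35 positive and 33 negative, with a median of 0.03. Ceramide supply genes split 5 and 7 there, with Sptssa, a subunit of serine palmitoyltransferase, at -0.23 and Gltp, a glycolipid transfer protein, at -0.28. Genes that use ceramide otherwise split 3 and 1, with Cerk (ceramide kinase) at 0.27 and Ugt8, the enzyme that starts the lipids bound by O4, at 0.10.

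Synthases of other glycolipid branches split 6 and 5 in NG2/A2B5 minus NG2, with B3galnt1, the globoside synthase, at 0.41 and B3gnt5, of the lacto-series and near background, at -0.71. Polysialic acid and other sialyltransferases split 4 and 1, but 2 of these 5 had a mean under the 25th percentile. St6galnac2 was among them (3.28, interval -2.33 to 8.90, with 1 NG2 array at -12.3 on the log2 scale). St6gal2 was at 0.88 (interval -0.02 to 1.78). Its mean of -1.73 lay near that limit (-2.15), and NG2 arrays I and II read under it, at -2.60 and -2.89. Sialic acid and sugar nucleotide supply split 4 and 6, with Gne, which starts sialic acid synthesis, at -0.30 and Cmas, which activates it, at -0.24. Breakdown genes split 9 and 9, with the lysosomal protective protein gene Ctsa at 0.59 and the glucosylceramidase gene Gba2 at -0.46. Ganglioside-binding and membrane domain proteins split 4 and 4, with Thy1 at 0.42 and Cav1 (caveolin) at -0.44.

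Between arrays III and II, 2 of the 68 passed, where 3.55% of all genes did, so the count is no higher than the background. Both genes are on the list of other uses of ceramide. Fa2h, which hydroxylates the fatty acids of myelin galactolipids, measured 2.44 to 3.08 on the log2 scale on arrays III and 0.07 to 0.72 on arrays II, higher by 2.32 or 4.98-fold (adjusted p 0.0225). Cerk measured 3.31 to 3.74 on arrays III and 4.20 to 4.66 on arrays II, lower on III at -0.87 (adjusted p 0.0344), and its second probe gave -0.90. In both genes the arrays of the 2 numerals did not overlap. Leaving out any 1 of the 9 arrays ended both calls, with adjusted p-values of 0.0559 to 0.121 for Fa2h and 0.0665 to 0.156 for Cerk, and the count over all genes went from 432 to between 0 and 5.

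In the same contrast 25 of the 68 genes had an unadjusted p under 0.05, where 23.7% of all genes did. Breakdown genes split 14 positive and 4 negative (median 0.41, against -0.08 over all genes), with 8 of 18 under that p, among them Hexa, which trims GM2, at 0.55 and Npc1, a lysosomal cholesterol transporter, at 0.76. Sialic acid and sugar nucleotide supply split 4 and 6 (median -0.40), with 5 of 10 under it, among them Slc35a2, the Golgi carrier of UDP-galactose, at -0.47 and Cmas at -0.35. Other glycolipid synthases split 5 and 6, with St3gal4 at -0.65 and St3gal1 at -0.64. Ceramide supply split 7 and 5, with Ormdl2, a brake on the first step, at 0.44 and Cers2, a ceramide synthase, at -0.50. Ganglioside-binding and membrane domain proteins split 5 and 3, with Cav1 at 0.75 and Thy1 at 0.65. Polysialic acid and other sialyltransferases split 3 and 2, with St8sia2, a polysialyltransferase read near background, at -2.04 and St6gal1 at 0.10. None of these named genes but Fa2h and Cerk passed the adjusted threshold.

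**Figure D5:**
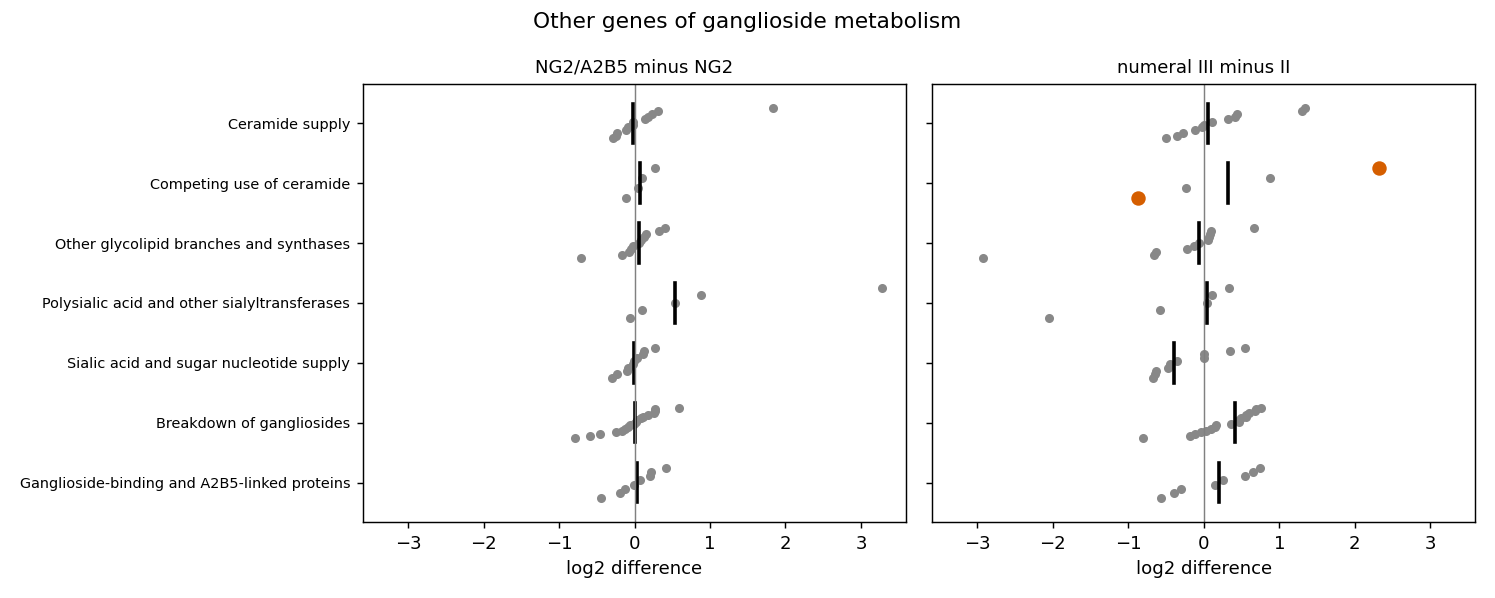
Log2 difference (x axis) of the 68 measured genes of 7 lists (y axis) in NG2/A2B5 minus NG2 (left) and in array III minus array II (right); each point is a gene, black bars are list medians, and larger orange points are genes with an adjusted p under 0.05. No gene passed on the left, and Fa2h (2.32) and Cerk (-0.87) passed on the right.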

How the data were processed

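The authors deposited 1 table of scaled intensity values on a linear scale. Per the labels' protocols, spiked synthetic mRNAs were used to normalize; for scanner, software and background correction, the sources used here name none. Values coded as missing were left out, and values at or below 0 were set to the array's smallest positive value before log2; no member value was affected. Of 35129 probes, 16865 carry 1 gene symbol, 165 several and 18099 none (the others were not used). Symbols were updated through the RefSeq table of GRCr8 (16836 probes matched, 1 symbol changed). The probe with the highest mean stands for a gene.

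Contrasts came from limma 3.58.1 (R 4.3.3; lmFit and eBayes, two-sided) on 9 arrays, without the numeral for populations (6 residual and 1.76 prior degrees of freedom) and with population plus numeral for numerals. P-values were adjusted over all genes tested (Benjamini-Hochberg). The script was tested on simulated data. The number of arrays limits precision. Named genes are all members, the 2 genes of each wider list with the smallest p in NG2/A2B5 minus NG2 and in III minus II, called genes, and the 3 genes most like each member, of which the text prints a part. Members and lists were chosen with earlier results of these data known. The alternatives are quantile normalization, median centring, a floor or a filter at the 25th percentile, the mean of probes, all probes, trend and robust estimates, blocks for the numeral (statmod 1.5.0), only the arrays compared, no population term, and leaving out each array. Figures used matplotlib 3.10.9.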

Additional observations from a re-analysis of the deposited data

How the results depend on the processing

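In the contrasts between populations the count of members that passed was 0 under all other settings (20 each for the pairwise contrasts, 19 for NG2/A2B5 against the mean of the others). Between numerals it was 0 except as follows. B4galt6 passed with a floor at the 25th percentile (1 member in II minus I and 1 in III minus II), with dim genes left out (1 in III minus II), without the population term (1 in III minus II) and with trend and robust estimates (1 in III minus II), and in II minus I the last called 2, B4galnt1 and B4galt6. Of 32 member and population contrast pairs 20 kept their sign under every setting, as did 14 of 24 for numerals. Sign changes of values over 1 SE were those of St3gal2: 0.16 with its other probe for O4 minus NG2/A2B5, and -0.27 with that probe and -0.040 with the mean of both for NG2/A2B5 minus the mean of the others.

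Same-numbered arrays of different populations had correlated deviations from their population means (r from 0.037 to 0.14 in 9 pairs). For pairs with different numerals r ran from -0.11 to 0.0065. In 18 of 18 comparisons the best correlated array had the same numeral, a hint from the data that these arrays share more than a number. The 18 are not independent, because each of the 9 pairs counts from both ends and the deviations are taken from shared population means. The main population model has no block because the labels do not say what a numeral stands for. Fitted as a random block, the numeral gave a correlation of 0.27 between arrays that share it. With the numeral as a fixed replicate block 0 genes passed in any population contrast, and with trend and robust estimates added 124 in O4 minus NG2, 1 in O4 minus NG2/A2B5, 95 in NG2/A2B5 minus NG2 and 25 against the mean of the others, with 0 members. Counts over all genes without the block ran from 0 to 4 between populations. With the fixed block alone, 2 of 8 members had an unadjusted p under 0.05 in O4 minus NG2 (limma, St3gal5 0.0123 and St8sia3 0.0399). There 1597 of 12165 genes did. O4 minus NG2/A2B5 had 1 of 8 (B4galnt1, 0.0102) and 738 of 12165 genes. NG2/A2B5 minus NG2 had 0 of 8 and 1057 of 12166. Against the mean of the others it was 1 of 8 (B4galnt1, 0.0201) and 681 of 12165. In III minus II the 432 genes became 136 to 1887 under other settings, and in II minus I the 28 became 2 to 833 (0 to 3 with an array left out); III minus I gave 0 to 311.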
